A study of Mus musculus with 5 samples.

Results

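Gas5, Snhg1, Snhg3, Snhg5, Snhg6, Snhg8, Snhg12 and Snhg15 are 8 mouse genes whose spliced RNA makes no known protein and whose introns carry small nucleolar RNAs (snoRNAs). They were taken by name from 46959 gene symbols, and all 8 were found and tested. Snhg15 stands in the count tables under the older symbol Gm11974, which RefSeq gives as its synonym and which has the same gene length, 3170 bp. The libraries came from D4m.3a, a melanoma line from a C57BL/6 mouse, kept for passages 7 to 12. The 3 caMNK libraries were from cells with a constitutively active MNK1 kinase, and the 2 pBABE libraries were from the control line, named for its retroviral vector. The comparison asks which transcripts differ once the kinase is active. Each group is 1 cell line, so the kinase cannot be told apart from whatever else sets the lines apart. The labels do not say how the cultures of the replicates were kept apart, so the p-values measure the spread between these libraries.

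A snoRNA host gene is transcribed as a long precursor. When its introns are cut out, enzymes trim them back to the snoRNAs, which proteins protect from the ends. Box C/D snoRNAs guide 2′-O-methylation of ribosomal RNA and H/ACA snoRNAs guide its pseudouridylation, while a few of each class help to cut the ribosomal precursor. The joined exons go to the cytoplasm. Several of these RNAs begin with a run of pyrimidines, the 5′ terminal oligopyrimidine tract shared with the mRNAs of ribosomal proteins, and several are destroyed by nonsense-mediated decay when ribosomes read their short open frames. Gas5 was found as a transcript that accumulates in growth-arrested mouse cells. MNK1, encoded by Mknk1, phosphorylates the cap-binding translation factor eIF4E.

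Libraries held 27827199 to 48794336 counts, and 22686 to 24034 genes were detected in each. Mknk1 measured 167, 155 and 168 CPM (counts scaled to a common library total) in the caMNK libraries, against 15.2 and 16.7 CPM in the pBABE libraries, so every library fitted its label. Of the variance in log2 CPM, 58.1% lay on a principal component between the groups and 21.3% on the next, at whose ends stood replicates 2 and 3 of caMNK. The melanocyte genes Dct and Tyrp1 were at 0 in all 5 libraries. Mitf, the master transcription factor of melanocytes, measured 4.71, 6.48 and 4.35 CPM in caMNK cells, against 5.93 and 6.26 CPM in pBABE cells, and Sox10, Tyr and Mlana had at most 2 counts in any library. Of 6 tested genes of melanocytes and melanoma 1 was called, Cdkn2a, which rose (log2 fold change 2.34, edgeR adjusted p = 0.0052). The melanoma origin therefore rests on the labels.

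All 8 host genes were higher in every caMNK library than in either pBABE library, and 6 of them rose by edgeR's quasi-likelihood test with a Benjamini-Hochberg adjusted p under 0.05 over 17026 genes. The 6 were Gas5, Snhg1, Snhg3, Snhg6, Snhg12 and Snhg15, and Snhg5 and Snhg8 did not pass. None was called lower, and at an unadjusted p under 0.05 the test gave 8 higher and 0 lower, where 13.8% of all genes were higher. Of all genes tested, 4.42% were called higher and 3.52% lower, and 22.3% were higher in every caMNK library than in both pBABE libraries. The median log2 fold change of the 8, caMNK over pBABE, was 0.56, against -0.0021 over all genes tested. Together the 8 genes took 474 to 485 CPM in caMNK cells and 341 to 351 CPM in pBABE cells. In bulk RNA, more cells that express a gene and more of its RNA per cell cannot be told apart.

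**Figure D1:**
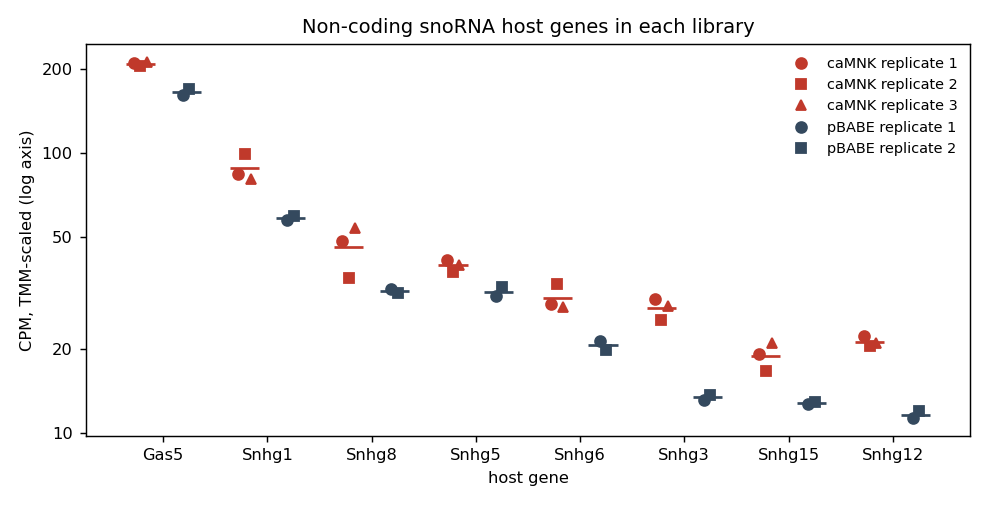
Level of each host gene in each library, in TMM-scaled CPM on a log axis, with caMNK libraries in red to the left and pBABE libraries in dark grey to the right of each gene, 1 marker shape per replicate number and a line at each group mean. In all 8 genes every caMNK point lies above both pBABE points, by the narrowest margin in Snhg8, where caMNK replicate 2 stood at 35.7 CPM and pBABE replicate 1 at 32.5 CPM.

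Gas5 and Snhg1 carry many box C/D snoRNAs, 9 and 8 in the annotation, and drew the most counts of the 8. Gas5 (chr1:161034422-161038539, plus strand, mm10) measured 209.8, 204 and 212 CPM in caMNK cells, against 161 and 169 CPM in pBABE cells. The caMNK libraries lay close together and well above both pBABE libraries, and the rise was small. Its log2 fold change was 0.34 (SE 0.0814, edgeR adjusted p = 0.0406). Snhg1 (chr19:8723475-8726443, plus strand), the U22 host gene and the first host known whose introns, not exons, hold the conserved sequence, measured 84.3, 99.6 and 80.9 CPM in caMNK cells, against 57.7 and 59.8 CPM in pBABE cells. Here caMNK replicate 2 was the highest library and the groups did not overlap. The log2 fold change of Snhg1 was 0.59 (SE 0.109, edgeR adjusted p = 0.0168).

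Snhg3 and Snhg12 lie on chromosome 4 and had the largest changes of the 8. Snhg3 (chr4:132348014-132353686, minus strand) is the host of the H/ACA snoRNAs Snora73a and Snora73b, also called U17, which take part in early cutting of the ribosomal precursor. It measured 29.98, 25.4 and 28.4 CPM in caMNK cells, against 13.1 and 13.6 CPM in pBABE cells. The lowest caMNK library was far above the higher pBABE library, and Snhg3 rose 2.08-fold (a log2 fold change of 1.06 with an SE of 0.111, edgeR adjusted p = 0.0039). Snhg12 (chr4:132308623-132311024, plus strand) holds 3 H/ACA snoRNAs and 1 box C/D snoRNA. It measured 22.1, 20.4 and 20.9 CPM in caMNK cells, against 11.3 and 11.9 CPM in pBABE cells. Both groups were tight, and Snhg12 rose 1.82-fold (log2 fold change 0.87, SE 0.104, edgeR adjusted p = 0.0052). Its deposited length is 2347 bp, short of the 2402 bp that GENCODE M21 gives it.

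Snhg8 and Snhg15 each hold 1 H/ACA snoRNA, Snora24 and Snora9. Snhg8 (chr3:123507552-123508404, minus strand) measured 48.5, 35.7 and 53.8 CPM in caMNK cells, against 32.5 and 31.6 CPM in pBABE cells. Its caMNK libraries spread the most of the 8 genes relative to their mean, with replicate 2 low, and it did not pass the test (log2 fold change 0.52, SE 0.161, edgeR adjusted p = 0.0836). Without caMNK replicate 2 its log2 fold change was 0.67 with an edgeR adjusted p of 1.72e-05, and DESeq2 on all 5 libraries gave an adjusted p of 0.0203, which made 7 of the 8 called higher by DESeq2, where 5.09% of all genes were. Snhg15 (chr11:6525591-6528760, minus strand) measured 19.1, 16.6 and 20.9 CPM in caMNK cells, against 12.7 and 12.9 CPM in pBABE cells. It rose with no overlap between the groups (log2 fold change 0.56, SE 0.125, edgeR adjusted p = 0.0334).

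Snhg5 and Snhg6 hold few snoRNAs, all of box C/D. Snhg5 (chr9:88521050-88522929, minus strand), the U50 host gene, measured 41.6, 37.7 and 39.8 CPM in caMNK cells, against 30.8 and 33.2 CPM in pBABE cells. The groups did not overlap, but the difference was the smallest of the 8 and missed the threshold (log2 fold change 0.31, SE 0.0936, edgeR adjusted p = 0.0765). Snhg6 (chr1:9941959-9944118, minus strand) measured 28.8, 33.9 and 28.3 CPM in caMNK cells, against 21.3 and 19.7 CPM in pBABE cells. As in Snhg1, caMNK replicate 2 was the highest library, and Snhg6 rose (log2 fold change 0.56, SE 0.114, edgeR adjusted p = 0.0243).

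Set per kilobase of gene body, the order of the genes changed. Snhg8, the shortest at 853 bp, averaged 53.9 ± 10.9 CPM per kb in caMNK cells and 37.6 ± 0.789 in pBABE cells (SD, n = 3 and 2). Gas5 averaged 50.7 ± 0.927 CPM per kb in caMNK cells and 40.1 ± 1.28 in pBABE cells. These neighbours in the order did not differ beyond their spread in caMNK cells, since the Snhg8 libraries ran between 41.9 and 63.1. Below them came Snhg1 with 29.7 CPM per kb in caMNK cells and 19.8 in pBABE cells, Snhg5 with 21.1 and 17.01, Snhg6 with 14.0 and 9.51, Snhg12 with 9.02 and 4.95, Snhg15 with 5.95 and 4.04, and Snhg3 with 4.92 and 2.36, in each case caMNK before pBABE. The gene body includes introns, so these levels are not those of the spliced RNA. In Snhg3, 96.4 to 97.9% of the counts lay in the 1611 bp that it shares with the predicted RNA Gm17300, out of 5673 bp. Its low value per kb and its last place therefore rest on an annotated span that mostly held few reads.

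The call on the group of 8 rested on few libraries. Without caMNK replicate 1, 2 of the 8 were called higher, Snhg3 and Snhg12, where 1.04% of all genes were. Without caMNK replicate 2 all 8 were, where 13.9% of all genes were. Leaving out pBABE replicate 1 ended every call on the 8 and left 11 genes called higher in the whole table, or 0.0631%, and leaving out pBABE replicate 2 left 0 of the 8 and 0.208% of all genes. At an unadjusted p under 0.05, 6 of the 8 were higher without pBABE replicate 1, where 7.17% of all genes were, and 7 without pBABE replicate 2, where 8.37% were. In those fits the lone pBABE library is assumed to vary like the caMNK libraries. The median log2 fold change of the 8 stayed between 0.53 and 0.58 whichever library was left out.

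**Figure D2:**
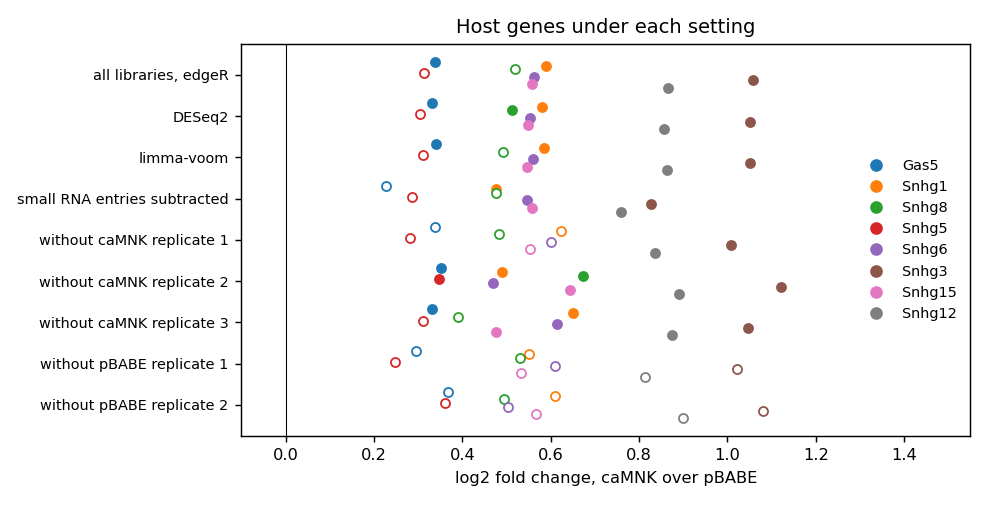
Log2 fold change of each host gene, caMNK over pBABE, under the analysis of all libraries and 8 alternatives, with filled points past the adjusted p threshold of 0.05 and open points not past it. All points lie to the right of 0, between 0.23 and 1.12, while the number of filled points runs from 0 without either pBABE replicate to 8 without caMNK replicate 2.

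Because each count covers a whole gene body, the reads over the snoRNAs are part of their host's count. GENCODE M21 lists 28 small RNAs inside the 8 hosts, and the tables list 27 of them under their own symbols, all of which passed the filter on low counts; Snora9 was not analysed here. A read that falls on such an entry is counted for the entry and for its host, whether it comes from the snoRNA or from unspliced host RNA, and these cannot be told apart. Of the 28 sequences, 17 hold TGATGA before their middle and CTGA after it, the letters of boxes C and D searched on the sense strand, and 6 of at least 100 bases hold ACA within the last 6 bases. Among all 1507 snoRNA transcripts of the annotation the shares were 22.2% and 42.5%. The 4 entries printed here stand at the 5′ and 3′ ends of the snoRNA series in Gas5 and Snhg1, whose values are set side by side in the text that follows. They are given 5′ to 3′ from GENCODE M21 (GRCm38/mm10), with box C and box D letters in capitals.
Gm26224 in Gas5 (chr1:161035394-161035473, plus strand): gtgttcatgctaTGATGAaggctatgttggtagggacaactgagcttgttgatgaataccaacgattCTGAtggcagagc
Gm25789 in Gas5 (chr1:161038308-161038383, plus strand): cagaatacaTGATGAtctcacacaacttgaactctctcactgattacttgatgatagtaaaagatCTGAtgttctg
Gm25855 in Snhg1 (chr19:8723993-8724064, plus strand): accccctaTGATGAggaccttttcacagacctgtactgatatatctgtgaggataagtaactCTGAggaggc
Snord22 in Snhg1 (chr19:8725866-8725991, plus strand): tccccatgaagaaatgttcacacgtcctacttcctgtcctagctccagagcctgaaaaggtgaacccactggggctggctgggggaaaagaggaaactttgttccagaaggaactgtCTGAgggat
Snord22, or U22, is needed for making 18S ribosomal RNA, and the exact box C letters searched are not in its sequence.

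Most small RNA entries had a larger log2 fold change than the gene around them, a difference that was not tested. It was not particular to these hosts. The median difference was 0.54 for the 27 entries here and 0.64 for 112 snoRNA entries inside protein-coding genes. Of the 27 entries, 15 were called higher and 0 lower by edgeR, where 4.42% of all genes were called higher. At an unadjusted p under 0.05, 21 entries were higher and 0 lower, where 13.8% of all genes were higher. The groups did not overlap in 22 of them, each higher in caMNK cells, as 22.3% of all genes were, and the median log2 fold change was 1.26. DESeq2 called 14 higher and 0 lower, and limma-voom 15 and 0, where 5.09% and 3.87% of all genes tested were called higher. In 22 of 27 entries the log2 fold change was above that of the host. As with the hosts, the calls fell without caMNK replicate 1, to 8, where 1.04% of all genes were called higher. The calls on the entries did not hold without either pBABE replicate. Their median log2 fold change was 1.05 without pBABE replicate 1 and 1.25 without pBABE replicate 2.

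Within Gas5, the entries nearest its 5′ end changed least and those nearest its 3′ end most. Gm26224, the first of the 9, had 1.19, 1.38 and 1.27 CPM in caMNK cells, against 1.18 and 1.549 CPM in pBABE cells. The groups overlapped (log2 fold change -0.07, SE 0.226, edgeR adjusted p = 0.876). Gm25789, the last, had 2.58, 3.02 and 2.32 CPM in caMNK cells, against 0.816 and 0.992 CPM in pBABE cells. Every caMNK library was more than double either pBABE library (log2 fold change 1.56, SE 0.226, edgeR adjusted p = 0.0083). Between them, in order along the gene, the log2 fold changes were 0.51 for Gm22489, 0.59 for Gm22357, 0.57 for Gm23212, 0.68 for Snord78, 1.29 for Mir5117, 1.47 for Snord80 and 1.40 for Snord47. Of these 7, Gm22489 and Gm23212 did not pass the test. Mir5117 carries a microRNA symbol, is typed as a snoRNA in GENCODE M21 and holds both box sequences.

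Snhg1 showed a like order along the gene. Gm25855, the first of its 8 entries, had 1.78, 1.97 and 1.84 CPM in caMNK cells, against 1.49 and 2.26 CPM in pBABE cells. All 3 caMNK values lay between those of the pBABE libraries (log2 fold change 0.01, SE 0.227, edgeR adjusted p = 0.981). Snord22, the last, had 10.8, 13.3 and 9.62 CPM in caMNK cells, against 4.27 and 5.14 CPM in pBABE cells. It rose 2.4-fold with no overlap (log2 fold change 1.26, SE 0.175, edgeR adjusted p = 0.0081). In order along the gene, the entries between them had log2 fold changes of 0.43 for Gm25894, -0.09 for Gm24452, 0.63 for Gm24453, 0.77 for Gm22744, 1.13 for Gm22680 and 1.08 for Gm23246. Of these, Gm22680 and Gm23246 were called.

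The first entry of Snhg12 also changed least among its 4. Snora16a had 26, 25 and 26 counts in caMNK libraries and 12 and 19 counts in pBABE libraries, with CPM ranges that overlapped (log2 fold change 0.69, edgeR adjusted p = 0.329). Snora44 (log2 fold change 1.47, edgeR adjusted p = 0.0564) followed, then Snora61 (1.46, edgeR adjusted p = 0.0185) and last Snord99 (2.03, edgeR adjusted p = 0.0238). Snord99 had 32, 58 and 46 counts in caMNK libraries, against 6 and 15 in pBABE libraries, so its fold is coarse. Across the entries of each gene, Spearman's rho between position and log2 fold change was 0.97 over 9 entries in Gas5, 0.90 over 8 in Snhg1 and 0.80 over 4 in Snhg12, as a description of entries that share their libraries and their host transcript.

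Hosts with 1 or 2 entries gave high values throughout. Snora24, in the middle of Snhg8, had 2.20, 1.85 and 1.86 CPM in caMNK cells, against 0.480 and 0.434 CPM in pBABE cells. With a rise of 4.25-fold (log2 fold change 2.09, SE 0.246, edgeR adjusted p = 0.0051) it had the largest log2 fold change of the 27 entries, in a host that did not pass. Snora73a had 3.87, 3.23 and 3.702 CPM in caMNK cells, against 1.37 and 0.961 CPM in pBABE cells, and Snora73b had 4.64, 4.20 and 5.84 CPM in caMNK cells, against 1.25 and 1.33 CPM in pBABE cells. Both rose with no overlap (log2 fold changes 1.60 and 1.92, edgeR adjusted p = 0.0075 and 0.0047), although they sit near the 5′ end of Snhg3 as annotated. The 1611 bp shared with Gm17300 hold both entries and 96.4 to 97.9% of the Snhg3 counts. Their position along the whole gene is therefore not their position in the part that held reads. Snora73a and Snora73b differ at 7 of 205 positions, and Snord50a and Snord50b of Snhg5 at 1 of 72, so the split of reads within each pair is uncertain. Snord50a (log2 fold change 1.58, edgeR adjusted p = 0.0458) passed the test, and Snord50b (1.51, edgeR adjusted p = 0.0761) and Snord87 of Snhg6 (1.72, edgeR adjusted p = 0.0835) did not, on 4 to 42 counts a library.
Snora24, from Snhg8 (chr3:123507937-123508066, minus strand), is printed as the entry with that log2 fold change, 5′ to 3′, with the ACA near its 3′ end in capitals.
Snora24: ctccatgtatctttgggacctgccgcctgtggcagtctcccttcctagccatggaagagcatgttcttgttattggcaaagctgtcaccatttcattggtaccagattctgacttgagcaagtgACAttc

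**Figure D3:**
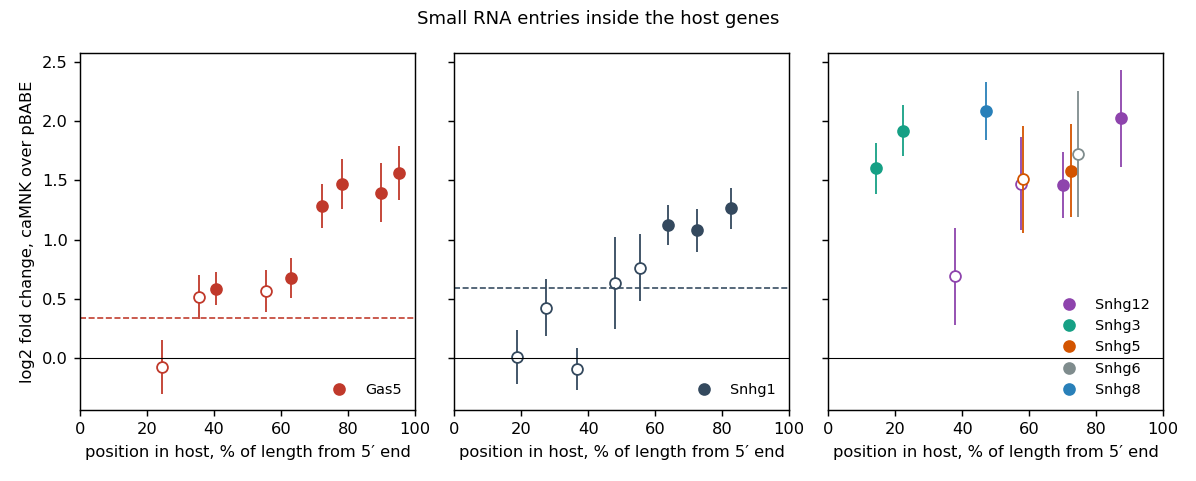
Log2 fold change, caMNK over pBABE, of each small RNA entry against the position of its middle in the host gene, as a percentage of the host's length from the 5′ end, with bars of 1 SE, filled points past the adjusted p threshold and dashed lines at the host's own log2 fold change for Gas5 and Snhg1. In Gas5 the points run from -0.07 for the first entry to 1.56 for the last, and in Snhg1 from 0.01 to 1.26, while the entries of Snhg3, Snhg5, Snhg6 and Snhg8 stand between 1.51 and 2.09 at any position.

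Counts within a library show the same shift without scaling between libraries. This measure was chosen after the entries' values were seen and is given as a description. For each library, the counts of the entries after the middle of the host were divided by those before it. In Gas5 the ratio was 1.80, 1.95 and 1.72 in caMNK libraries, against 1.30 and 1.36 in pBABE libraries. In Snhg1 it was 3.11, 3.45 and 3.57 in caMNK libraries, against 1.83 and 1.60 in pBABE libraries. In Snhg12 it was 4.08, 6.28 and 4.62 in caMNK libraries, against 2.92 and 2.32 in pBABE libraries, on 12 to 26 counts before the middle. In all 3 genes the caMNK libraries lay above both pBABE libraries.

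The shift with position also appeared in small RNAs of other genes. Over the 8 hosts, 4 of 11 entries before the middle were called higher, with a median log2 fold change of 0.59, and 11 of 16 after it, with a median of 1.43. Inside protein-coding genes the tables held 112 tested snoRNA entries, of which 17 were called higher and 0 lower, with a median log2 fold change of 0.69. Before the middle of those genes 1 of 48 was called (median 0.49), and after it 16 of 64 (median 0.90). Of all genes tested, 4.42% were called higher. These counts were likewise chosen after values were seen.

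A share of each host's counts lay in its small RNA entries, and that share was higher in every caMNK library than in both pBABE libraries in all 7 hosts with a measured entry. In Gas5 it was 24.3, 24.3 and 21.3% in caMNK libraries, against 15.2 and 18.9% in pBABE libraries. In Snhg1 it averaged 33.3 ± 0.668% in caMNK libraries and 27.9 ± 1.56% in pBABE libraries (SD, n = 3 and 2). In Snhg3 the averages were 30.4 ± 2.81% in caMNK and 18.4 ± 2.17% in pBABE libraries, the widest gap of the 7. Snhg12 averaged 19.3% in caMNK and 13.2% in pBABE libraries, and in Snhg5, Snhg6 and Snhg8 the share averaged 1.79 to 4.39% in caMNK and 0.820 to 1.42% in pBABE libraries.

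With those entries subtracted, the remaining host counts were still higher in every caMNK library in all 7 hosts. Gas5 then measured 159, 155 and 167 CPM in caMNK cells, against 137 and 137 CPM in pBABE cells, and its call was lost (log2 fold change 0.23, SE 0.0827, edgeR adjusted p = 0.126). Snhg3 measured 21.5, 18.0 and 18.8 CPM in caMNK cells, against 10.5 and 11.3 CPM in pBABE cells, and stayed called (log2 fold change 0.83, SE 0.120, edgeR adjusted p = 0.0083). After subtraction the log2 fold changes were 0.48 for Snhg1 (edgeR adjusted p = 0.0324), 0.55 for Snhg6 (0.0247) and 0.76 for Snhg12 (0.0076), all called. Snhg5 at 0.29 and Snhg8 at 0.48 were not called (edgeR adjusted p = 0.0982 and 0.113). With Snhg15, which has no entry to subtract, 5 of the 8 were called higher. What remains still mixes exons with the rest of the introns.

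**Figure D4:**
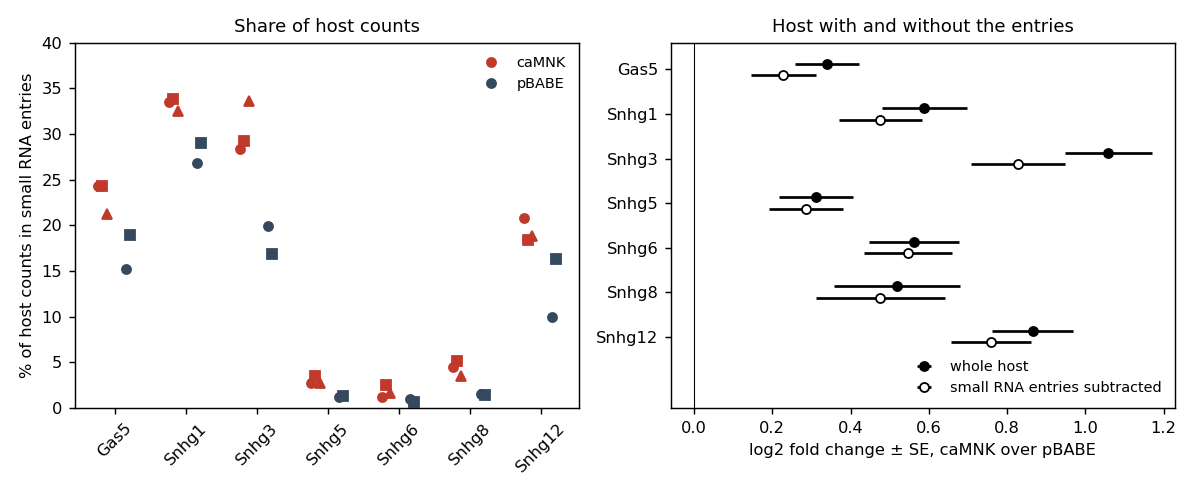
Left, percentage of each host's counts that lie in its small RNA entries, 1 point per library, with caMNK in red left of pBABE in dark grey; right, log2 fold change with bars of 1 SE for the whole host (filled) and with the entries subtracted (open). The caMNK points lie above the pBABE points in all 7 hosts, and subtraction lowered every fold change, most in Snhg3, at 1.06 whole and 0.83 after subtraction.

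Snhg3 cannot be separated from its overlapping genes. Rcc1, the nucleotide exchange factor of Ran, lies on the same strand and shares 5592 bp with it, and the predicted RNA Gm17300 lies on the opposite strand within it and shares 1611 bp. Gm17300 held 96.4 to 97.9% of the Snhg3 counts in every library, which leaves 31, 28 and 22 Snhg3 counts outside it in caMNK libraries and 19 and 16 in pBABE libraries. Its log2 fold change of 1.07 therefore repeats that of Snhg3. Rcc1 as counted was 115, 103 and 117 CPM in caMNK cells, against 102 and 108 CPM in pBABE cells, and was not called (log2 fold change 0.09, SE 0.092, edgeR adjusted p = 0.599). Of the Rcc1 counts, 24.4 to 26.1% lay in Snhg3 in caMNK libraries and 12.6 to 12.9% in pBABE libraries. Without them Rcc1 stood at 85.02, 77.7 and 88.2 CPM in caMNK cells and 88.4 and 94.8 CPM in pBABE cells.

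None of the 8 protein-coding genes reported here that overlap a host or lie within 5 kb of one was called higher by edgeR, and 1 fell. Slc3a2, a subunit of amino acid transporters, starts 106 bp from Snhg1 and is transcribed away from it. It measured 182, 174 and 223 CPM in caMNK cells, against 291 and 289.6 CPM in pBABE cells (log2 fold change -0.59, SE 0.115, edgeR adjusted p = 0.0208), so the pair had changes of the same size in opposite directions. Its adjusted p was 0.105 without caMNK replicate 1, 0.193 without pBABE replicate 1 and 0.156 without pBABE replicate 2 in edgeR. Zbtb37, which overlaps Gas5 by 428 bp, had a log2 fold change of -0.04 (edgeR adjusted p = 0.896). Phactr4 beyond Snhg3 had 0.11 (0.598), Trnau1ap beside Snhg12 had 0.03 (0.908), Mcmdc2, which overlaps Snhg6 by 127 bp, had 0.37 (0.300) and Prss12 beside Snhg8 had 0.66 (0.150), and none of these was called. At an unadjusted p under 0.05 Prss12 was higher, and without caMNK replicate 2 it was called (log2 fold change 0.90). Myo1g, 4626 bp from Snhg15, had at most 2 counts in a library and was not tested. Counts of Zbtb37 came to 6.08 to 9.68% of those of Gas5, and counts of Mcmdc2 to 13.8 to 18.4% of those of Snhg6.

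Further non-coding hosts of snoRNAs were looked at next. Of 12 further non-coding hosts in the files 10 were tested, and 5 were called higher and 0 lower, with a median log2 fold change of 0.68. Zfas1, listed under the symbol 1500012F01Rik, measured 80.4, 76.7 and 81.0 CPM in caMNK cells, against 48.96 and 45.3 CPM in pBABE cells (log2 fold change 0.75, edgeR adjusted p = 0.0050). Dancr (1.33), Snhg20 (1.08), Snhg4 (0.73) and Snhg17 (0.62) also rose, with edgeR adjusted p from 0.0081 to 0.0123. Snhg7 (1.19), Snhg16 under 1810032O08Rik (0.46), Snhg18 (0.46), Epb41l4aos (0.39) and Snhg14 (0.16) were not called, and Snhg9 and Snhg11 were too low to test. At an unadjusted p under 0.05, 9 of these 10 were higher and 0 lower, where 13.8% of all genes were higher. The calls on them did not hold without either pBABE replicate. Their median log2 fold change was 0.59 without pBABE replicate 1 and 0.67 without pBABE replicate 2. Without caMNK replicate 1, 2 of the 10 were called, where 1.04% of all genes were. Without caMNK replicate 2, 9 were, where 13.9% of all genes were. On all 5 libraries 4.42% of all genes were called higher.

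Protein-coding hosts of snoRNAs were centred near 0. Of 50 tested, 0 were called higher and 4 lower in each of edgeR, DESeq2 and limma-voom. In those fits 3.52%, 4.94% and 3.3% of all genes were called lower. In edgeR 2 were higher and 7 lower at an unadjusted p under 0.05, where 13.8% of all genes were higher. The median log2 fold change was -0.03. Those that fell were Hspa9 (-0.46), Cnot1 (-0.49), Prrc2a (-0.32) and Hspa8 (-0.30), with edgeR adjusted p from 0.0195 to 0.0498. Without caMNK replicate 2, 2 were called higher and 11 lower, where 13.9% and 15.7% of all genes were. Without caMNK replicate 1 the calls were 0 and 0, where 1.04% and 0.474% of all genes were called. Total-count scaling gave 1 higher and 2 lower, where 5.87% and 2.73% of all genes were. For edgeR with no filter on low counts the calls were 1 and 6, where 5.69% and 4.75% of all genes were. The 79 ribosomal protein genes, whose mRNAs are known for the pyrimidine start, had a median log2 fold change of -0.0043. They gave 0 calls in either direction in edgeR, DESeq2 and limma-voom. With no filter edgeR called 1 of them higher and 2 lower, where 5.69% and 4.75% of all genes were. With total-count scaling the median was 0.02 for the protein-coding hosts and 0.05 for the ribosomal protein genes, above 0 in both. Rps2 alone had an unadjusted p under 0.05 in edgeR (log2 fold change -0.27, edgeR adjusted p = 0.152).

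Factors of nonsense-mediated decay and of snoRNA particles gave few calls. The 20 nonsense-mediated decay factors gave 0 calls in edgeR, DESeq2 and limma-voom and a median log2 fold change of -0.02. Of these, 2 were higher and 2 lower at an unadjusted p under 0.05 in edgeR, where 13.8% of all genes were higher. The most changed by p was Upf3b (log2 fold change 0.34, edgeR adjusted p = 0.0572), with Smg6 (0.25), Smg1 (-0.38) and Nbas (-0.30) next. For the 20 proteins of snoRNA particles and their assembly the calls were also 0 in edgeR, DESeq2 and limma-voom, the median -0.02, and 1 gene, Ruvbl2, had an unadjusted p under 0.05 (log2 fold change -0.27). Without caMNK replicate 2 the decay factors gave 2 calls higher and 4 lower and the particle proteins 1 and 4. In that fit 13.9% of all genes were called higher and 15.7% lower. On all 5 libraries, 1 decay factor was called higher with total-count scaling, where 5.87% of all genes were. With no filter 1 was called higher and 1 lower, where 5.69% and 4.75% of all genes were. Total-count scaling put the median at 0.03 for the decay factors and 0.04 for the particle proteins. Human GAS5 RNA can bind the glucocorticoid receptor. Of 13 target genes of that receptor, 1 rose, Lcn2 (log2 fold change 1.03, edgeR adjusted p = 0.0444). Another 1 fell, Fkbp5 (-0.39, edgeR adjusted p = 0.0432), and the median was 0.03. Among all genes tested 4.42% were called higher and 3.52% lower. Sgk1 (0.34, edgeR adjusted p = 0.0633) and Errfi1 (0.30, edgeR adjusted p = 0.0922) were not called. At an unadjusted p under 0.05 edgeR gave 3 higher and 4 lower, where 13.8% of all genes were higher. DESeq2 called 2 higher and 2 lower, where 5.09% and 4.94% of all genes were, and limma-voom 0 and 1, where 3.87% and 3.3% were. Without caMNK replicate 2 edgeR called 4 and 3, where 13.9% and 15.7% of all genes were. Without caMNK replicate 1 it called 0 and 0.

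**Figure D5:**
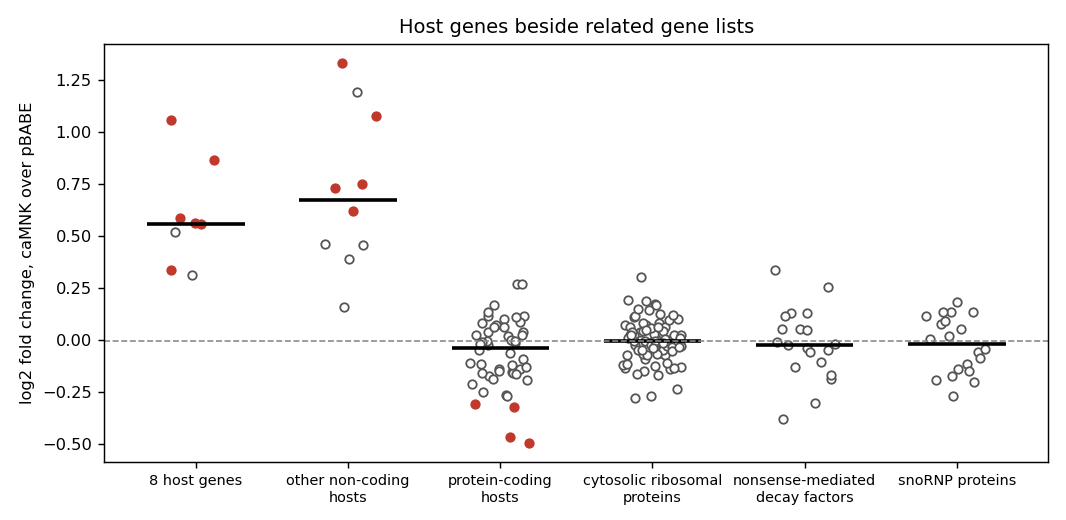
Log2 fold change, caMNK over pBABE, of each tested gene in the 8 host genes and 5 related lists, with filled points past the adjusted p threshold and a bar at each list's median. The medians of the 8 hosts (0.56) and of the other non-coding hosts (0.68) stand apart from those of the protein-coding hosts (-0.03), the ribosomal proteins (-0.0043), the decay factors (-0.02) and the snoRNA particle proteins (-0.02), the last 4 of which lay between 0.02 and 0.05 with total-count scaling.

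Calls among other non-coding and mitochondrial RNAs were mostly in the direction of the hosts. Of 461 long intergenic RNAs tested, 56 (12.1%) were called higher and 14 lower, with a median log2 fold change of 0.24. Of 328 genes typed as processed transcripts, as 6 of the 8 hosts are, 38 (11.6%) were higher and 15 lower, with a median of 0.11. The share called higher was 3.86% among protein-coding genes and 4.42% among all genes, of which 3.52% were called lower. Of 8 nuclear non-coding RNAs 4 were called higher and 2 lower, and their summed level was 573 to 866 CPM in caMNK cells and 350 to 362 CPM in pBABE cells. Malat1 measured 486, 259 and 432 CPM in caMNK cells, against 169 and 169 CPM in pBABE cells. Of 10 mitochondrial mRNAs 6 were higher and 0 lower, with 18772 to 21665 CPM in caMNK cells and 12290 to 13533 CPM in pBABE cells. The calls on the nuclear and mitochondrial RNAs did not hold without either pBABE replicate. Their median log2 fold changes were 0.65 and 0.56 without pBABE replicate 1, and 0.78 and 0.76 without pBABE replicate 2. Without caMNK replicate 1, 2 mitochondrial mRNAs were called higher, where 1.04% of all genes were. Without caMNK replicate 3, 9 were, where 5.57% of all genes were. How far RNA quality or library preparation takes part in the values of the hosts was not tested.

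Markers of other cell types showed no common direction. The summed macrophage markers were 13.3 to 18.2 CPM in caMNK cells and 13.4 to 15.0 CPM in pBABE cells, with 0 of 2 tested called. Fibroblast markers summed to 614 to 869 CPM in caMNK cells and 858 to 911 CPM in pBABE cells, with 1 of 4 called, Col1a1, which fell (log2 fold change -0.76). Endothelial markers summed to 3.54 to 3.63 CPM in caMNK cells and 5.47 to 9.48 CPM in pBABE cells, with 1 of 3 called, Cdh5, which fell (-1.43), while Tek (0.82) and Pecam1 (1.07) were not called and the median of the 3 was 0.82. Keratinocyte markers were at 0.216 to 0.329 CPM in caMNK cells and 0.216 to 0.217 CPM in pBABE cells, too low to test.

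Start sites of the hosts were searched for a pyrimidine run, since 6 of the 8 genes rose together. The search took the sense strand within 10 bases either side of the RefSeq start for a C followed by 4 or more letters that are C or T. Of 8 windows from 7 of the hosts, 4 held such a run, or 50%, against 25.5% of all 32851 windows and 48.5% of 68 windows of ribosomal protein genes. The 4 are at the downstream start of Gas5, Snhg12, Snhg8 and Snhg3. Snhg1, Snhg5, Snhg15 and the upstream start of Gas5 held none within those bases. The windows printed here run from 30 bases before the start to 30 after it, from RefSeq on GRCm38.p6, with the run in capitals, and show the downstream and upstream starts of Gas5 and the starts of Snhg12 and Snhg1.
Gas5 downstream start (chr1:161035136-161035195, plus strand): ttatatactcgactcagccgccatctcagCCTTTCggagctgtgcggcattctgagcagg
Gas5 upstream start (chr1:161034571-161034630, plus strand): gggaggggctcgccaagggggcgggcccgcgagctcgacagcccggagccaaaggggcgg
Snhg12 (chr4:132308648-132308707, plus strand): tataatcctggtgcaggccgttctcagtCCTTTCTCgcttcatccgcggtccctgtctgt
Snhg1 (chr19:8723457-8723516, plus strand): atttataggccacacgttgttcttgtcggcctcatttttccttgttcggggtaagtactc
Among the hosts with a run the log2 fold changes were 0.34 for Gas5, 0.87 for Snhg12, 0.52 for Snhg8 and 1.06 for Snhg3, and among those without, 0.59 for Snhg1, 0.31 for Snhg5 and 0.56 for Snhg15. These values are given as a description of 7 genes.

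Profiles of other genes were set against the mean profile of the 8. Over the 5 libraries, log2 CPM was centred on its mean for each gene, and the absolute differences from the mean of the 8 hosts were summed. This was done among 9382 genes whose log2 CPM averaged at least 3. Left out were the 8 hosts, genes overlapping or inside them, and symbols of predicted genes, clones or pseudogenes. The symbols under which Zfas1 and Snhg16 are listed were among those left out. The closest were Ccnl2 (summed difference 0.132), which encodes the cyclin L2 linked to splicing, Arhgap26 (0.142), Nupr1 (0.151), a stress-induced regulator of transcription, Tfap2a (0.164), a transcription factor of neural crest and skin, and the long non-coding RNA Firre (0.165). Ccnl2 measured 76.8, 68.2 and 73.5 CPM in caMNK cells, against 46.0 and 47.9 CPM in pBABE cells. In these 5 genes, as in the hosts, every caMNK library lay above both pBABE libraries, with log2 fold changes of 0.56 to 0.63. The selection by profile largely sets both. With 5 libraries, many genes can have near profiles.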

How the data were processed

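Per the labels' protocols, an RNeasy Plus Mini Kit gave total RNA, and libraries were made with the TruSeq Stranded Total RNA kit. The deposited files hold raw read counts per gene, 1 table per library. The tools named in the submitters' processing notes are STAR 2.5.3, featureCounts 1.5.3, Trimmomatic 0.32, SAMtools 0.1.19, FastQC 0.11.2 and DESeq2, with the build mm10. The settings of featureCounts and its annotation were not given in the sources used here. Of 44053 symbols matched to GENCODE M21, 37268 had a deposited length equal to the genomic span, introns included, and overlapping genes on either strand hold the same reads.

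Counts were compared with edgeR 4.0.16 in R 4.3.3: filterByExpr, TMM scaling, the robust quasi-likelihood test on group, and Benjamini-Hochberg adjustment over 17026 genes at a threshold of 0.05. The steps were tested on simulated data. CPM uses TMM-scaled totals, and SE is the log2 fold change over the square root of F. Groups came from the sample titles: 3 caMNK and 2 pBABE libraries. All pairs of libraries differed by more than sampling noise (chi-square per degree of freedom of 5.94 or more).

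The host genes and gene lists were chosen with earlier results of these data known. Genes named are the 8 hosts, the small RNAs inside them, protein-coding genes overlapping or within 5 kb (1 is not reported here), other non-coding hosts, Mknk1, the 4 lowest p of each list (3 most abundant for quality and marker lists, of which not all are printed) and the 5 closest profiles; genes at or near 0 among the melanocyte markers, and Ruvbl2, Fkbp5 and Cdh5 where a count singles them out, are named as members of their lists. Alternatives were total-count scaling, DESeq2 size factors, DESeq2 1.42.0, limma-voom 3.58.1, no filter, a stricter filter, a replicate block, leaving out each library, and subtracting the small RNA entries.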

Additional observations from a re-analysis of the deposited data

How the results depend on the processing

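Every one of the 8 hosts kept a positive log2 fold change in the 13 alternatives, and none was called lower in any. With 753 genes called higher and 599 lower in all, the counts were 1591 and 1330 with no filter on low counts, and 999 and 465 with total-count scaling, under which 6 of the 8 hosts and 16 small RNA entries were called. Leaving out 1 library gave 11 to 2325 genes higher and 12 to 2617 lower, 0 to 8 hosts and 0 to 18 entries called higher. The median log2 fold change of the hosts was 0.61 with total-count scaling and 0.51 with the entries subtracted, and 0.53 to 0.58 with 1 library left out. Over hosts and alternatives, 82 of 104 calls stayed on their side of the threshold, 17 were lost and 5 gained. Of those lost, 16 came from leaving out a pBABE replicate or caMNK replicate 1 and 1 from the subtraction in Gas5. The replicate block gave 1477 genes higher and 1231 lower, with 7 hosts and 21 entries called higher. It also called 1 ribosomal protein gene and 1 decay factor higher, and 3 ribosomal protein genes and 1 particle protein lower. In that fit caMNK replicate 3 has no pBABE library of its number and adds nothing to the group difference. Same-numbered libraries of the 2 groups deviated with correlations of -0.055 and -0.025, which show no sign of pairing. The deviations of the 2 pBABE libraries from their mean mirror each other, so this check cannot decide whether libraries were paired. Entries under about 30 counts, such as those of Snhg5 and Snhg6, are limited by depth. With 2 pBABE libraries, their spread is itself poorly known.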
